A study of Mus musculus with 4 samples.

Results

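Map9, Scn4b, Zfp563, Chchd10, Trem1 and Aldh1a1 are 6 mouse genes that no single pathway of lymphoid development links, and each was picked for a higher array value in CLP_RAGhigh than in CLP_RAGlow progenitors. All 6 were found among the 18193 genes measured, and they are covered by 10 of the 34945 probe sets that the platform annotation assigns to 1 gene. The common lymphoid progenitor (CLP) is a bone marrow cell whose descendants include B, T and natural killer cells and a part of the dendritic cells. The study split it into a subpopulation with a high level and a subpopulation with a low level of GFP, named CLP_RAGhigh and CLP_RAGlow. RAG is the recombinase that cuts antigen receptor genes. Each of the 4 samples was RNA from 2000 cells sorted from the bone marrow of C57Bl6 mice aged 8 to 12 weeks. There were 2 samples per group, and no treatment or other genotype is named in the labels. The labels call them biological replicates but name no separate mice or sorts for them, so every spread below is that between these samples and may be in part technical.

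The genes were chosen on the difference between the 2 groups, so their values are given as a description and no p-value is attached to them. The questions that remain are whether the probe sets of a gene agree, how far a difference depends on the background of the array, and how relatives and chromosomal neighbours of the genes behaved. A probe set is the group of short probes that reports 1 transcript. Values are log2 of the deposited intensity unless stated otherwise, and differences are CLP_RAGhigh minus CLP_RAGlow. The median intensity of an array was 14.5 to 14.8, or 3.86 to 3.89 on the log2 scale. A value below it is called dim here, since without detection calls background cannot be told from low expression at that level.

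As background, the proteins of these genes work in different parts of the cell. Map9 binds microtubules and helps to stabilise the mitotic spindle, and Scn4b is an auxiliary beta subunit of voltage-gated sodium channels. Zfp563 belongs to the large class of zinc finger proteins. Chchd10 is a small protein of the mitochondrial intermembrane space with paired CX9C motifs, Trem1 is a receptor of neutrophils and monocytes that signals through the adaptor DAP12 (gene Tyrobp), and Aldh1a1 oxidises retinaldehyde to retinoic acid.

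The promoters that carry a shared feature are shown first. The 250 bases before the transcription start were read for all 6 genes (8 starts, RefSeq, build GRCm38.p6) and searched on both strands for the octamer ATGCAAAT, the element that POU-domain factors and their B-cell coactivator bind at immunoglobulin promoters. Chchd10 and Aldh1a1 held it, and the other 4 genes did not. Chchd10 carries the octamer in 2 copies, which start 83 and 70 bases before its transcription start. Aldh1a1 carries it in 1 copy, 56 bases before the downstream of its 2 annotated starts. Vpreb3, a B-lineage gene that is the nearest measured gene after Chchd10 on chromosome 10, carries it in the reverse orientation, 45 bases before its start. Of the chromosomal neighbours described below, the promoter of Vpreb3 alone was looked up. Whether the other neighbours hold the octamer was not tested. The last 120 bases before each of these starts are printed 5′ to 3′ on the plus strand, with the octamer in capitals.
Chchd10, chr10:75933010-75933129: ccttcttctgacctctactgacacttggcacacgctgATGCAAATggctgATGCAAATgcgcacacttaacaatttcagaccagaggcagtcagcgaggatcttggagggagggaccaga
Aldh1a1, chr19:20601848-20601967: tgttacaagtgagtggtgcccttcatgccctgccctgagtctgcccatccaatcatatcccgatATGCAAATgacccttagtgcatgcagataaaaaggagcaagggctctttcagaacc
Vpreb3, chr10:75948180-75948299: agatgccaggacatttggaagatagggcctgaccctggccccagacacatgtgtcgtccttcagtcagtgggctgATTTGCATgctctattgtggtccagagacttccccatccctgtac

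Of 32851 promoters of the same length, 1.60% held at least 1 octamer and 0.0974% held 2 or more. A match is a description of these letters and says nothing about whether a factor binds there. The other 4 motifs searched were CCCNNGGG (EBF), CAGGTG and CAGCTG (E-boxes) and GTAAACA (FOXO). Among the 6 genes they matched 1 time, a CAGGTG before the upstream start of Aldh1a1. CAGGTG is in 17.2% of all promoters, CCCNNGGG in 11.8%, CAGCTG in 13.0% and GTAAACA in 3.17%. The motifs searched do not overlap one another in these windows.

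The cells were checked against markers before the genes were described. Of the progenitor markers, 6 of 7 were measured, and all 6 (Il7r, Flt3, Kit, Cd27, Cd93 and Dntt) lay above the array median on all 4 arrays. Over all genes, 11576 of 18193 had a mean above the median of all probe sets. Dim on all 4 arrays were 3 of 15 granulocyte and monocyte, 2 of 8 erythroid and 3 of 5 megakaryocyte markers. So were 2 of 5 committed B, 2 of 6 T-cell, 2 of 4 natural killer, 0 of 5 plasmacytoid dendritic and 2 of 6 stromal and endothelial markers. Mpo, at 10.90 and 10.86, was brighter than Kit. Brightness therefore does not tell progenitors from other cells here. Markers of other cells were counted where each CLP_RAGhigh array read higher than each CLP_RAGlow array. These were 1 of 8 erythroid, 1 of 5 megakaryocyte, 2 of 5 committed B and 2 of 6 T-cell markers. They were also 2 of 4 natural killer, 1 of 5 plasmacytoid dendritic and 0 of 6 stromal and endothelial markers. The reverse held for 2 committed B and 2 plasmacytoid dendritic markers and for 0 erythroid, megakaryocyte, T-cell, natural killer, stromal and endothelial markers. The 2 committed B markers below, Ms4a1 and Fcer2a, were dim on all 4 arrays. The 2 above were Cd79b (means 7.96 and 7.03) and Pax5 (4.75 and 3.73). Of the 6 progenitor markers 2 separated above and 1 below, and the granulocyte and monocyte markers are described with Trem1. Over all genes the shares were 15.4% and 15.8%. Rag1, after which the groups are named, had mean values of 10.77 ± 0.21 and 8.13 ± 0.57 (SD, n = 2 each) in CLP_RAGhigh and CLP_RAGlow. The RNA was amplified, and reads of the 3′ end exceeded those of the 5′ end. For Actb, the 3′ probe set exceeded the 5′ one by a ratio of 16.2 and 9.62 on the CLP_RAGhigh arrays and 13.5 and 24.5 on the CLP_RAGlow arrays. Where each probe set lies on its transcript was not tested.

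Chchd10 lay well above the array median in both groups, and among the genes with several probe sets it was the one in which all of them separated the groups. Its brighter probe set, 1436990_s_at, read 10.81 and 10.36 on the CLP_RAGhigh arrays and 8.47 and 8.60 on the CLP_RAGlow arrays. The CLP_RAGhigh arrays were the 2 higher ones, with a gap of 1.76 between the nearest arrays of the groups. The means of 10.59 ± 0.32 and 8.53 ± 0.09 (SD, n = 2 each) differ by 2.05 ± 0.26 (SE from the fit), or 4.15-fold. The second probe set, 1433720_s_at, read 8.35 and 8.02 against 7.04 and 7.03, a difference of 1.15, or 2.22-fold. The probe sets thus pointed the same way and differed in size. Both have the suffix that marks probes shared between transcripts, so no Chchd10 value rests on unshared probes alone.

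Trem1 also had a signal above the array median in both groups, but it came from 1 of its 2 probe sets. Probe set 1447284_at, which the annotation ties to an expressed sequence tag, read 9.54 and 8.58 on the CLP_RAGhigh arrays and 6.32 and 5.99 on the CLP_RAGlow arrays. The groups did not overlap, and all 4 values lay above the array median. The difference of 2.91 ± 0.44 (SE) is 7.50-fold. Probe set 1460282_at, tied to the RefSeq transcript of Trem1, read 2.92 and 2.75 against 2.85 and 2.68. It was dim on all 4 arrays, its groups overlapped, and its difference was 0.07. The bright signal is therefore called Trem1 only by the annotation of 1 probe set.

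Trem1 is best known from neutrophils and monocytes, and their markers were read on the same arrays. Of 18 granulocyte and monocyte markers 15 were measured, and their means were higher in CLP_RAGhigh for 8 and lower for 7. Their summed intensity was 4391 and 4576 on the CLP_RAGhigh arrays and 6398 and 3416 on the CLP_RAGlow arrays. Itgam, Mmp8 and Fcgr3 were dim on all 4 arrays. S100a8, S100a9, Ltf, Ngp and Camp were lowest on CLP_RAGlow replicate 2, while the granule enzyme genes Mpo, Elane and Ctsg were not, and Prtn3 was lowest on CLP_RAGhigh replicate 2, at 4.69. S100a8 read 9.62, 9.60 and 10.15 on both CLP_RAGhigh arrays and CLP_RAGlow replicate 1, and 3.81 on CLP_RAGlow replicate 2. Ngp read 9.01, 9.72 and 10.38 on the same arrays and 3.80 on CLP_RAGlow replicate 2. The groups separated for 2 of the 15 above and 2 below, beside 15.4% and 15.8% of all genes. Those above were Elane, at 0.41 ± 0.30, and Fcgr3, at 0.40 ± 0.21 (SE, n = 2 per group). The receptor genes Csf1r and Csf3r separated below, with differences of -1.90 ± 0.52 and -0.83 ± 0.36 (limma adjusted p = 0.799 and 0.940). Lyz2 differed by -0.51 ± 0.49. With the 3 probe sets of Csf1r averaged, its difference was -1.25. On CLP_RAGlow replicate 1, where S100a8 and Ngp were highest, the Trem1 value was 6.32. Without CLP_RAGlow replicate 2 the Trem1 difference was 2.74. The part of these markers in the Trem1 value was not tested.

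Map9 had the largest difference of the 6 genes, and it too rests on a single probe set. Probe set 1440231_at read 7.21 and 7.57 on the CLP_RAGhigh arrays and 2.75 and 3.36 on the CLP_RAGlow arrays. Both CLP_RAGlow values were dim, and the nearest arrays of the groups lay 3.85 apart. The means were 7.39 ± 0.26 and 3.05 ± 0.43 (SD, n = 2 each), and the difference was 4.34 ± 0.37 (SE), or 20.2-fold. The other probe sets, 1441961_at and 1445442_at, were dim on every array. Their differences were 0.25 and 0.12, and their groups overlapped. With all 3 probe sets averaged the difference was 1.57.

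Scn4b and Zfp563 each have 1 probe set on the array, so agreement between probe sets could not be examined. Scn4b (1434008_at) read 7.64 and 6.52 on the CLP_RAGhigh arrays and 2.95 and 3.07 on the CLP_RAGlow arrays. The 2 CLP_RAGhigh arrays were further apart (SD 0.79) than the 2 CLP_RAGlow arrays (SD 0.09), which were both dim. The difference was 4.07 ± 0.45 (SE), or 16.8-fold. Zfp563 (1442648_at) read 6.47 and 5.98 against 2.61 and 2.84. Again both CLP_RAGlow values were dim and the groups did not overlap, and the difference was 3.50 ± 0.31 (SE), or 11.3-fold.

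Aldh1a1 was dim in both groups. Its 1 probe set, 1416468_at, read 3.66 and 3.77 on the CLP_RAGhigh arrays and 2.22 and 1.88 on the CLP_RAGlow arrays, which is 12.6 and 13.7 against 4.67 and 3.69 in units of intensity. All 4 values lay under the median of their array. The groups did not overlap, and the difference was 1.66 ± 0.20 (SE), or 3.17-fold. The CLP_RAGhigh values stood at percentiles 47.0 and 48.1 of all probe sets and the CLP_RAGlow values at 11.9 and 4.22.

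**Figure D1:**
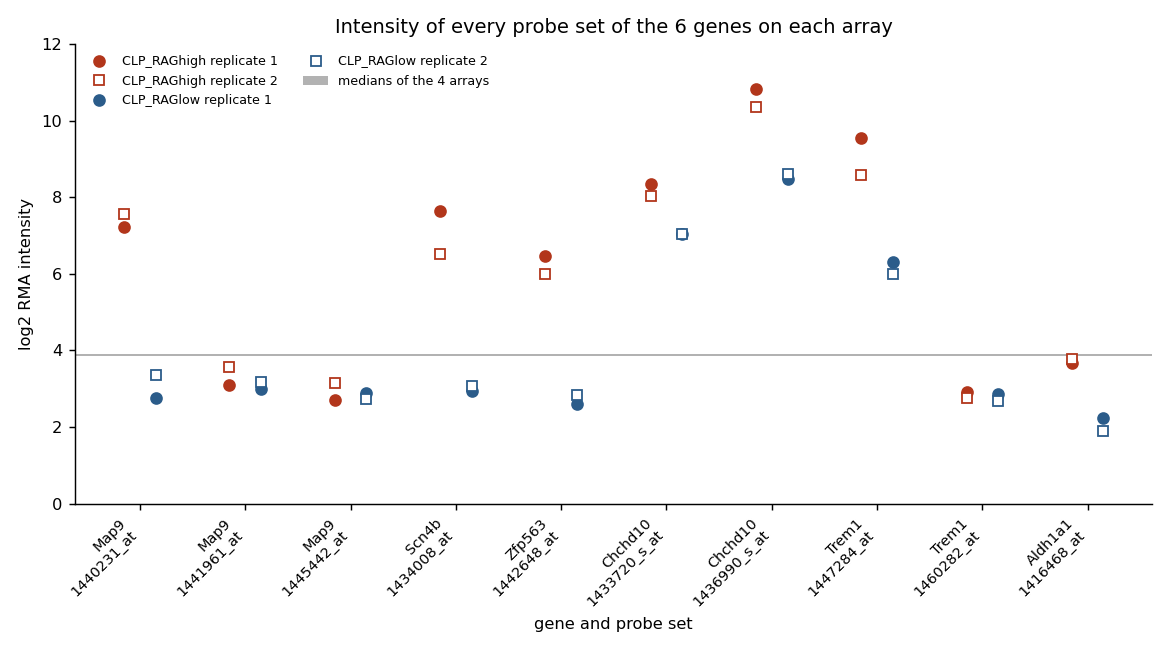
The vertical axis is the log2 RMA intensity of each of the 10 probe sets of the 6 genes, with CLP_RAGhigh in red and CLP_RAGlow in blue, replicate 1 filled and replicate 2 open, and the grey line at the array medians (3.86 to 3.89). The bright probe sets of Map9, Scn4b and Zfp563 are above the line in CLP_RAGhigh and below it in CLP_RAGlow, both Chchd10 probe sets and 1 of Trem1 are above it on all arrays, and Aldh1a1 is below it on all arrays.

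Over the 10 probe sets, 7 separated the groups, meaning that each CLP_RAGhigh array read higher than each CLP_RAGlow array, and 4 of the 10 were dim on all arrays (2 of Map9, 1 of Trem1 and that of Aldh1a1). Over all genes the same separation held for 15.4% in this direction and for 15.8% in the opposite one. The choice of the genes fixes their direction, so nothing is read from the share.

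The size of the differences depended on the background for 4 of the 6 genes. Adding an offset of 32 intensity units before log2 damps differences between dim values. With it the fold fell from 20.2 to 4.94 for Map9, from 16.8 to 4.22 for Scn4b, from 11.3 to 2.77 for Zfp563 and from 3.17 to 1.25 for Aldh1a1. Chchd10 went from 4.15 to 3.90 and Trem1 from 7.50 to 5.49. The order of the genes changed as a result. Without an offset the largest difference was that of Map9 and the second smallest that of Chchd10, while with an offset of 64 the largest was that of Trem1 (2.15), followed by Chchd10 (1.88) and Map9 (1.68). A floor that lifts dim values to the median of their array left Map9 at 11.4-fold, Scn4b at 9.15-fold and Zfp563 at 5.06-fold, and brought the Aldh1a1 difference to -0.01.

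**Figure D2:**
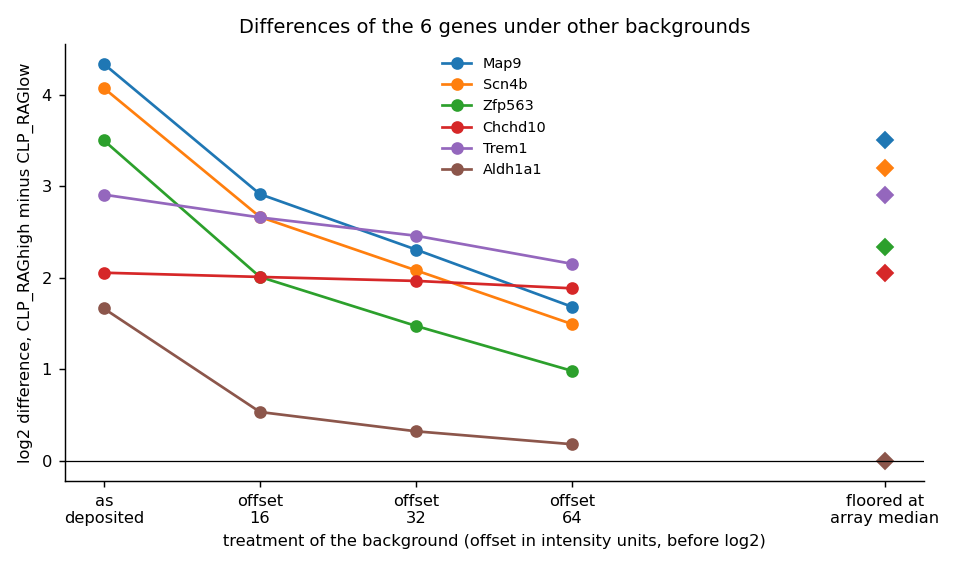
The vertical axis is the log2 difference, CLP_RAGhigh minus CLP_RAGlow, of the brightest probe set of each gene as deposited, with offsets of 16, 32 and 64 intensity units (joined points), and with values floored at the array median (diamonds). Chchd10 stays between 1.88 and 2.05 on the joined points, Map9 falls from 4.34 to 1.68, and Aldh1a1 falls from 1.66 to 0.18 and is at -0.01 with the floor.

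The place of each gene among all 18193 shows the same dependence. By difference, 3 genes had a value at least as large as that of Map9, itself included, 4 as that of Scn4b, 6 as that of Zfp563, 16 as that of Trem1, 48 as that of Chchd10 and 105 as that of Aldh1a1. With the offset of 32 these numbers were 12 for Map9, 15 for Scn4b, 32 for Zfp563, 9 for Trem1, 17 for Chchd10 and 1858 for Aldh1a1. Trem1 and Chchd10 thus moved toward the top and the other 4 moved down.

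Relatives and partners of the genes were read from 6 lists. Of their 156 genes the array measured 143, and the other 13 are not analysed here. The fit was made over all genes with limma, and 0% of genes passed its adjusted p threshold of 0.05 above and 0% below. An unadjusted limma p under 0.05 was reached by 2.35% of all genes above and by 2.94% below. The median difference over all genes was 0.0028. None of the 143 listed genes passed over all genes, with a smallest limma adjusted p of 0.556.

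Among 22 measured genes of TREM receptors and DAP12 signalling, 13 means were higher in CLP_RAGhigh and 9 lower. The median difference was 0.10, or 0.0051 with probe sets averaged. The groups separated for 10 of them above (45.5%, beside 15.4% of all genes) and 3 below (13.6%, beside 15.8%). An unadjusted limma p under 0.05 was reached by 3, all above. Among the 10 are Trem3, Treml4 and Treml2, which are counted again below as chromosomal neighbours of Trem1. Treml4 was dim on all 4 arrays. Tyrobp, the adaptor that Trem1 needs at the cell surface, had means of 9.03 and 9.70 and a difference of -0.68 ± 0.30 (SE, n = 2 per group). Hcst, the related adaptor DAP10, differed by -0.77 ± 0.44. The adaptor genes thus had lower means in CLP_RAGhigh, opposite to the Trem1 signal. Downstream of DAP12, the kinase gene Syk had bright signals, with means of 10.37 and 9.83. It differed by 0.54 ± 0.26, but with its 4 probe sets averaged by -0.08. Plcg2, a phospholipase activated by Syk, had means of 10.84 and 10.33 (0.51 ± 0.19, limma adjusted p = 0.923). The receptor gene Cd300lf differed by 1.57 ± 0.56, or 0.58 with the offset of 32, as it is dim in CLP_RAGlow. Trem2 differed by 0.26 ± 0.30 with overlapping groups.

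Of 31 measured microtubule-associated and spindle genes, 17 means were higher in CLP_RAGhigh and 14 lower, and the median difference was 0.05. The groups separated for 6 above (19.4%) and 8 below (25.8%, beside 15.8% of all genes). Stmn1, which destabilises microtubules, had means of 12.58 and 12.96 and differed by -0.38 ± 0.08 (SE, n = 2 per group). The spindle assembly factor gene Tpx2 differed by -2.11 ± 0.61 and the mitotic depolymerase gene Kif2c by -1.32 ± 0.42. With their probe sets averaged, 4 each, the differences were -0.86 and -0.63. Map7d2, a microtubule-binding relative of Map7, went the way of Map9, with 4.63 and 5.84 on the CLP_RAGhigh arrays against 3.05 and 3.35. Its difference of 2.03 ± 0.45 became 0.79 with the offset of 32, and its second probe set gave 0.13. Aurka, whose kinase acts with Map9 at the spindle, differed by 0.29 ± 0.42, Map7 by -0.54 ± 0.60 and Mapt by 0.01 ± 0.30, all with overlapping groups. Mapre1, a plus-end binding protein, gave -0.59 ± 0.25 by its brightest probe set and 1.05 by another of its 5.

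Sodium channel genes were dim almost throughout. Of 11 measured, 7 were dim on all 4 arrays, 0 separated above and 6 below (54.5%, beside 15.8% of all genes), and the median difference was -0.16. Scn2b, another beta subunit and the next gene to Scn4b on chromosome 9, read 4.19 and 4.04 on the CLP_RAGhigh arrays and 4.27 and 4.27 on the CLP_RAGlow arrays. These values are just above the array median and the difference was -0.15 ± 0.26 (SE, n = 2 per group). Over its 3 probe sets the Scn2b difference ran from -0.84 to 0.21. Scn3b differed by -0.47 ± 0.25, and by 0.34 in its other probe set. The alpha subunits, which form the pore, had Scn8a at 3.61 and 3.56, Scn3a at 1.82 and 2.86, Scn10a at 2.16 and 2.44 and Scn11a at 3.71 and 4.0.

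Zfp563 was set beside cofactors of KRAB zinc finger repressors and heterochromatin genes. Of 23 measured, 9 means were higher in CLP_RAGhigh and 14 lower, and the median difference was -0.02. Trim28, the corepressor that KRAB domains recruit, was bright and near equal, at 11.67 and 11.74. Its partners Setdb1 and Cbx5 differed by 0.05 ± 0.40 and -0.13 ± 0.34 (SE, n = 2 per group). With the 5 probe sets of Cbx5 averaged, its difference was -0.55. The groups separated for 3 above (13.0%, beside 15.4% of all genes) and 4 below (17.4%, beside 15.8%), and differences ran from -1.01 for Morc3 to 0.91 for Zfp101. The 3 with the smallest p were Zfp110 and Zfp568, both zinc finger genes, at -0.86 ± 0.31 and -0.70 ± 0.33, and Cbx1, a heterochromatin protein, at -0.56 ± 0.26. None of them passed (limma adjusted p from 0.899 to 0.971).

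Chchd10 was set beside other mitochondrial genes. Of 28 measured genes of the twin CX9C family, the MICOS complex and intermembrane import, 8 means were higher and 20 lower, 1 gene separated above (3.57%, beside 15.4% of all genes) and 6 below (21.4%, beside 15.8%), and the median was -0.09, or 0.074 without CLP_RAGlow replicate 1. Chchd3, a MICOS subunit with the same fold, was the 1 above, with 7.12 and 7.77 against 6.45 and 6.70. Its difference was 0.87 ± 0.40 (SE, n = 2 per group), and -0.20 in another of its 3 probe sets. Immt, the core of MICOS, differed by 0.04 ± 0.31. The import receptor gene Chchd4 and its oxidase partner Gfer differed by 0.17 ± 0.29 and -0.10 ± 0.38. The other probe set of Gfer gave -0.84. Cox6b1, a twin CX9C subunit of cytochrome oxidase, had means of 11.61 and 11.97. Cmc1, an assembly factor of the same enzyme, differed by -0.76 ± 0.32 and by 1.27 in its other probe set, and Coa4 by -0.68 ± 0.25, or -0.19 with the offset of 32.

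Of 28 measured genes of retinoic acid synthesis and signalling, 14 means were higher and 14 lower, 1 gene separated above (3.57%, beside 15.4% of all genes) and 3 below (10.7%, beside 15.8%), and the median was 0.02. Aldh1a7, a close paralog of Aldh1a1 that lies next to it on chromosome 19, read 2.40 and 7.56 on the CLP_RAGhigh arrays and 2.35 and 2.79 on the CLP_RAGlow arrays. A single array, CLP_RAGhigh replicate 2, was high, and the groups overlapped (2.41 ± 1.54, SE). Aldh1a1 itself read 3.77 on that array, close to the 3.66 of the other CLP_RAGhigh array. The other retinaldehyde dehydrogenase genes were dim or near the array median, with Aldh1a2 at 2.48 and 2.44 and Aldh1a3 at 3.82 and 3.87. The retinoic acid receptor gene Rara differed by -0.28 ± 0.29, Rarb by 0.34 ± 0.25, and Cyp26a1, which degrades retinoic acid, by -0.16 ± 0.33. The retinol dehydrogenase gene Rdh11 was the 1 gene that separated above, at 6.15 and 8.16 against 4.64 and 6.05. Its difference was 1.81 ± 0.80 (SE, n = 2 per group), and 0.37 in its other probe set. Rdh10, which makes retinaldehyde from retinol, had means of 7.20 and 6.44 with overlapping groups.

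**Figure D3:**
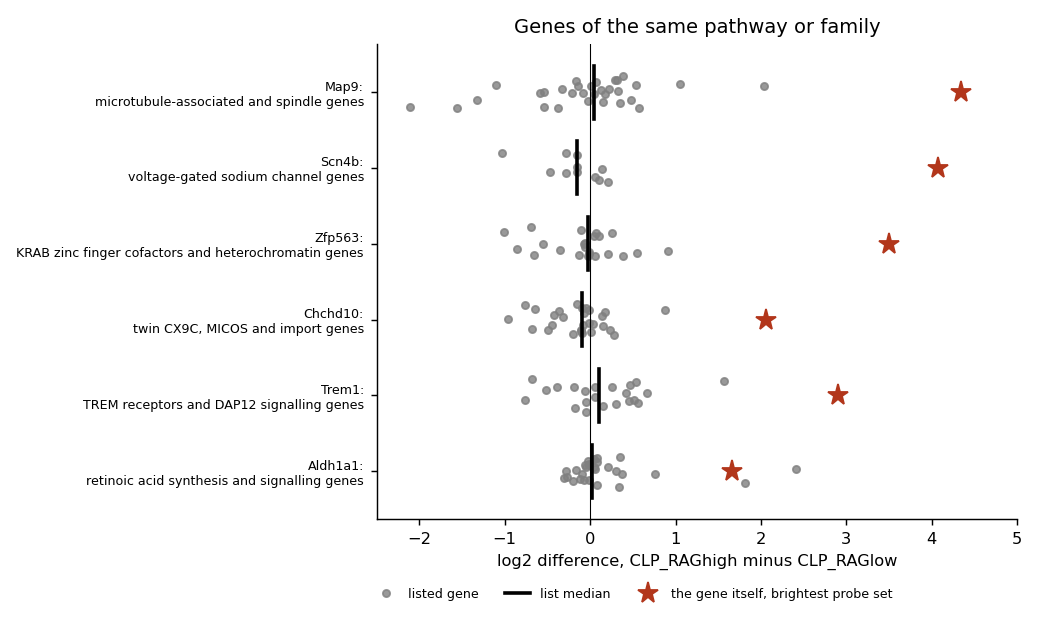
The horizontal axis is the log2 difference, CLP_RAGhigh minus CLP_RAGlow, of every measured gene of the 6 lists (grey), with the list's median as a black bar and the gene after which the list was made as a red star, which the choice of genes placed to the right. List medians lie between -0.16 and 0.10, and the grey points beyond 2 to the right are Map7d2 and Aldh1a7, of which Aldh1a7 rests on 1 array.

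Position on the chromosome was not used to choose the genes. The 2 nearest measured genes on each side of each gene gave 24 neighbours, with 14 means higher and 10 lower in CLP_RAGhigh. The groups separated for 7 above (29.2%, beside 15.4% of all genes) and 2 below (beside 15.8%), and 6 of the 24 were dim on all arrays. In the fit with limma 0 passed. An unadjusted limma p under 0.05 was reached by 3, all above, beside 2.35% of all genes above and 2.94% below. The 7 were not spread evenly, since 4 lay beside Chchd10, 2 beside Trem1 and 1 beside Map9. Of the 7, Rbm46 beside Map9 and Treml4 beside Trem1 were dim on all 4 arrays. With the offset of 32 they differed by 0.05 and 0.06.

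All 4 neighbours of Chchd10 separated above. Vpreb3, which assists assembly of the pre-B-cell receptor, read 5.64 and 6.55 on the CLP_RAGhigh arrays and 4.68 and 4.51 on the CLP_RAGlow arrays. Its difference was 1.50 ± 0.42 (SE, n = 2 per group; limma adjusted p = 0.813). On the other side Mmp11, a secreted metalloproteinase, read 7.03 and 5.20 against 3.96 and 4.81, a difference of 1.73 ± 0.67 that became 0.98 with the offset of 32. Smarcb1, a subunit of the SWI/SNF remodeller, and Zfp280b differed by 0.48 ± 0.29 and 0.66 ± 0.36. The window was then widened to 6 measured genes on each side, after these values were seen. In it 5 of 12 separated above (41.7%, beside 15.4% of all genes) and 0 below (beside 15.8%). The fifth is Gstt2, a glutathione transferase, at 6.11 and 6.10 against 4.87 and 4.50, while Derl3 and Mif between it and Smarcb1 overlapped.

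Trem1 lies at one end of a cluster of TREM genes on chromosome 17. In the same wider window 10 of its 12 neighbours had a higher mean in CLP_RAGhigh, beside 50.6% of all genes. The groups separated for 6 above (50.0%, beside 15.4% of all genes) and 0 below (beside 15.8%). The genes that follow Trem1 are Trem3, Treml4, Treml2 and B430306N03Rik, and all 4 separated. The others that separated, Frs3 and Tfeb, lie before Trem1 and outside the cluster. They differed by 0.27 ± 0.35 and 0.25 ± 0.34 (SE). Trem3 read 4.09 and 4.87 against 4.07 and 3.56, a difference of 0.67 ± 0.37 (SE, n = 2 per group) close to the array median. Treml4 was dim throughout, Treml2 differed by 0.56 ± 0.40, and B430306N03Rik, at 5.69 and 6.22 against 4.95 and 4.86, by 1.05 ± 0.36 (limma adjusted p = 0.886). Trem2 and Treml1, at the far end of the cluster, overlapped.

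Among the 12 neighbours of each of the other 4 genes in the wider window, 8.33% to 16.7% separated above, beside 15.4% of all genes. Beside Map9, 8 of 12 neighbours were dim on all arrays, 1 separated above and 2 below. For Scn4b, Zfp563 and Aldh1a1 the separated neighbours were 2 above and 1 below each. Over all genes 15.8% separated below. Scn4b follows Cd3g, Cd3d and Cd3e, which encode chains of the T-cell receptor complex, and these differed by 0.11, 0.07 and -0.04 with overlapping groups. Zfp563 lies among other zinc finger genes. Of its nearest ones Zfp763 differed by -0.61 ± 0.73 and Zfp952 by 0.14 ± 0.40, both with overlapping groups. Zfp955a separated below at -0.42 ± 0.27 (8.61 and 8.68 against 8.95 and 9.18), and the more distant Zfp101 separated above at 0.91 ± 0.45 (SE, n = 2 per group; limma adjusted p = 0.979). Anxa1, next to Aldh1a1, was bright and near equal, at 8.67 in both groups.

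**Figure D4:**
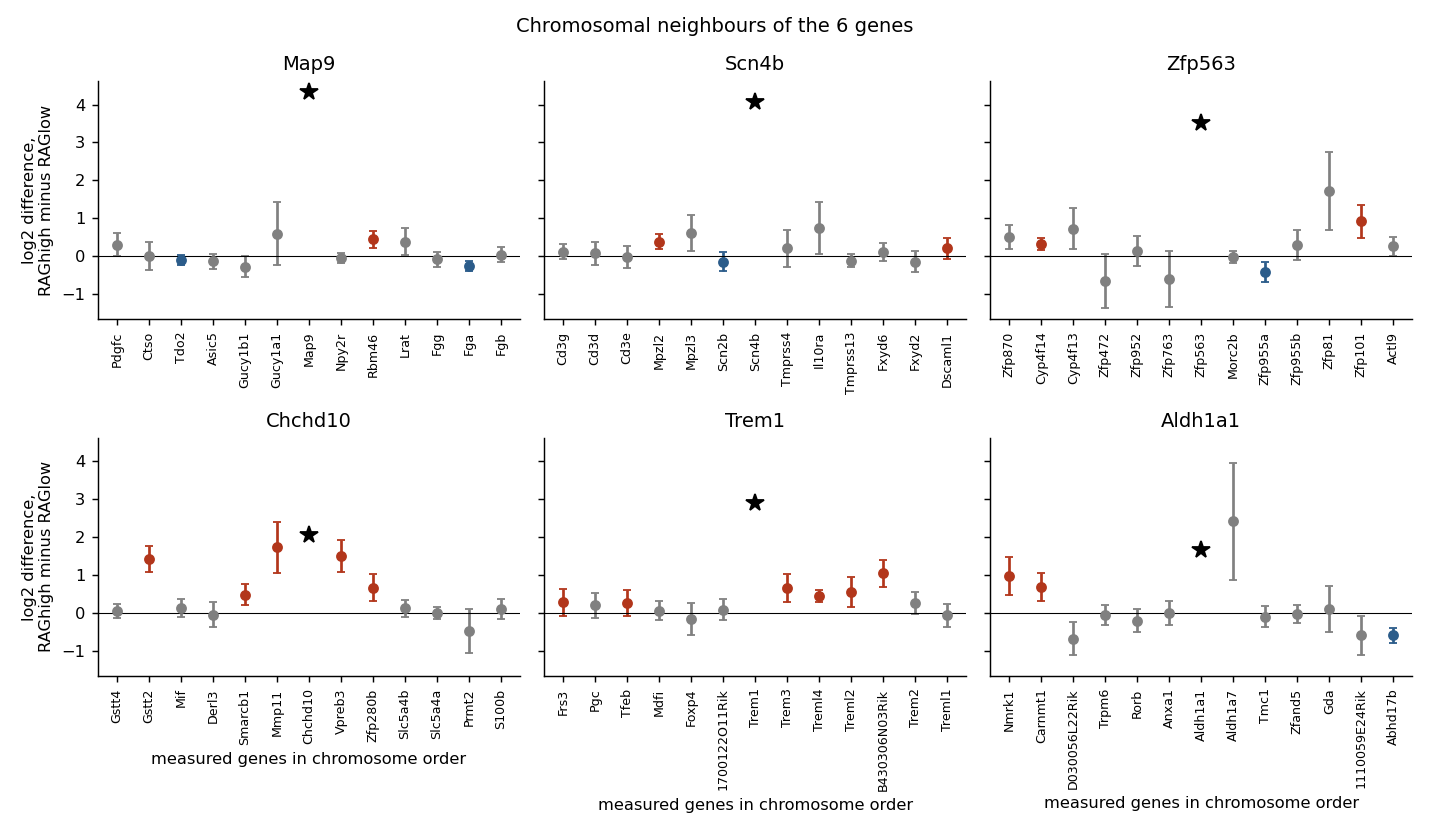
Each panel shows the log2 difference, CLP_RAGhigh minus CLP_RAGlow, of 1 of the 6 genes (star, without an error since it was chosen for this value) and of the 6 measured genes on each side in chromosome order (points with the SE from the fit). Red points have each CLP_RAGhigh array higher than each CLP_RAGlow array, blue points the reverse, and grey points overlap, with 5 red neighbours for Chchd10, 6 for Trem1 and 1 or 2 for each of the others.

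The genes whose values over the 4 arrays were most alike were found by the Euclidean distance between log2 profiles, each centred on its own mean, among genes with a mean above the median of all probe sets. A small distance means that 2 genes differ between the 4 arrays by like amounts, and it carries no test. The 6 genes were chosen for their difference between the groups, so genes near them share such a difference by construction. The mean in this filter is over both groups. Gpat3, Zfp563 and 4930503L19Rik, dim on both CLP_RAGlow arrays, therefore passed it through their CLP_RAGhigh values. By Pearson correlation over the 4 arrays in place of the distance, 1 of the 18 genes named next was chosen again. Among the 6 genes, which were all chosen for the same direction, Scn4b and Zfp563 were 0.73 apart and Chchd10 and Aldh1a1 0.65. For Map9 the nearest genes were Gpat3 (0.81), Ebf1 (0.87) and Zfp563 (1.06), and for Zfp563 they were Ifi213 (0.23), Gimap4 (0.39) and Vpreb1 (0.50). Scn4b was nearest to Zfp563, Ifi213 (0.84) and Gimap4 (1.10). Trem1 was nearest to BC016579 (0.25), 4930503L19Rik (0.43) and Vpreb1 (0.52), whose protein belongs to the surrogate light chain. Chchd10 was nearest to Trib3 (0.32), Myl4 (0.35) and Pik3r6 (0.37), and Aldh1a1 to Gstt2 (0.26), Entpd1 (0.28) and Kcng1 (0.32). Gstt2 is the gene already described near Chchd10. Among these genes the probe sets of Ebf1, Ifi213 and 4930503L19Rik did not all point one way.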

How the data were processed

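RNA from 2000 sorted cells per sample was amplified and measured on the MOE430_2 array of Affymetrix, per the labels. The authors deposited 1 intensity per probe set, computed with RMA per the series' design text. Its software is not given in the sources used here. The values reach 19893, which fits a linear scale, so log2 was taken here. Precision is limited by there being 4 arrays.

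Of 45101 rows, 64 were control probe sets. Of the rest, 34945 had 1 gene in the platform annotation, 932 several and 9160 none, and only the first were used. The gene IDs of 34741 matched RefSeq's table (GRCm38.p6), which gave names, neighbours and promoters, the latter for all 6 genes. No build is given for the array. A gene is represented by its probe set with the highest mean.

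For genes other than the 6, limma 3.58.1 (R 4.3.3) gave the tests (lmFit, eBayes with an intensity trend, two-sided, Benjamini-Hochberg over all genes, 2 residual and 3.75 prior degrees of freedom), after a check on simulated data. The genes named are the 6, partner genes of each list with 3 more by smallest p, 2 neighbours per side, the 3 genes most alike to each of the 6, and Rag1. Others, such as those in the wider windows, were named after their values were seen. The 6 genes, the lists and the motifs were chosen with earlier results of these data known. Figures were drawn with matplotlib 3.10.9.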

Additional observations from a re-analysis of the deposited data

How the results depend on the processing

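The difference of each of the 6 genes kept its sign under all alternatives except that of Aldh1a1, which was -0.0092 with values floored at the array median, an alternative chosen after seeing the data. With that floor Map9 was at 3.51, Scn4b at 3.19 and Zfp563 at 2.34. With offsets of 16, 32 and 64, Map9 was at 2.91, 2.31 and 1.68, Scn4b at 2.66, 2.08 and 1.49, Zfp563 at 2.01, 1.47 and 0.98, and Aldh1a1 at 0.53, 0.32 and 0.18. Trem1 was at 2.15 with an offset of 64. With probe sets averaged Map9 was at 1.57, Chchd10 at 1.60 and Trem1 at 1.49. Chchd10 has no value without the _s_at, _x_at and _a_at probe sets. Leaving out 1 array gave 4.03 to 4.64 for Map9, 3.52 to 4.63 for Scn4b, 3.26 to 3.74 for Zfp563, 1.83 to 2.28 for Chchd10, 2.42 to 3.39 for Trem1 and 1.49 to 1.83 for Aldh1a1.

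The list medians with 1 array left out ran from -0.10 to 0.13 for microtubule, -0.20 to -0.12 for sodium channel, -0.11 to 0.055 for KRAB cofactor, -0.26 to 0.074 for mitochondrial, 0.12 to 0.31 for TREM and -0.11 to 0.17 for retinoic acid genes, so that only those of the sodium channel and TREM lists kept their sign. The sodium channel median was -0.051, -0.031 and -0.017 with offsets of 16, 32 and 64 and -0.050 with probe sets averaged. The TREM median was 0.075, 0.051 and 0.035 with these offsets and 0.0051 with probe sets averaged. The cause of these changes was not tested.

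Over all genes the number with limma adjusted p under 0.05, 0 in both directions, became 2 above with probe sets averaged, 2 above and 1 below with quantile normalization, and 1 above among genes over the median brightness. The number at an unadjusted limma p under 0.05, 428 above and 535 below, ran from 211 to 805 above and from 328 to 829 below with 1 array left out. It was 805 and 829 without CLP_RAGhigh replicate 1, 649 above without CLP_RAGhigh replicate 2, 211 and 328 without CLP_RAGlow replicate 1, and 354 below without CLP_RAGlow replicate 2. With the replicate block 5 genes passed above and 2 below, and 451 and 572 had an unadjusted p under 0.05. The labels do not say what a replicate number shares, and deviations of same-numbered arrays correlated at -0.02 over 18193 genes, so the numbers were not taken as pairs. By Pearson correlation over the 4 arrays in place of the distance, 1 of the 18 choices of genes most alike was the same.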
